A study of Homo sapiens with 2 samples.

Results

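The regions described here were H4R3me2a peaks in intergenic sequence just beyond the ends of protein-coding genes in HCT116 cells. A peak was counted when its summit, the base with the most fragments, lay on chromosomes 1 to 22 or X, in no GENCODE gene of any type, more than 1 kb from the transcription start site (TSS) of every protein-coding transcript, and within 5 kb downstream of the 3' end of a protein-coding gene on that gene's strand. Of 33349 peaks on these chromosomes (33353 in all), 1173 met the rule, which was 3.52% (95% exact Clopper-Pearson interval 3.32% to 3.72%). They were 20.6% (19.6% to 21.7%) of the 5681 summits that lay in no gene and away from protein-coding TSSs, and the remaining 4508 are called other intergenic peaks. The rule used position and no measured value.

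The study held 1 chromatin immunoprecipitation (ChIP-seq) library made with an antibody to H4R3me2a and 1 library of input DNA, both from untreated HCT116, an established human colorectal carcinoma line. With 1 library per group there was no replicate check of any value, and no test was made. Intervals are exact at 95%, cover counting error only, and treat fragments and peaks as independent, which PCR copies and neighbouring peaks are not. The number of reads in either library was not given in the sources used here.

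H4R3me2a is histone H4 with an asymmetric dimethyl group on an arginine of its tail, a mark placed mainly by the methyltransferase PRMT1 and known from active chromatin. At the end of a protein-coding gene the nascent RNA is cleaved and polyadenylated after a signal such as AAUAAA, while RNA polymerase II runs on into the flanking DNA before it is released. Sequence just past an annotated end is therefore intergenic by annotation and can still be transcribed.

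The sequences under the strongest of these peaks are shown first, since base composition recurs in every comparison. Each is the summit with 60 bases on either side (112 bases in all at CAPN1, shortened so that no base of the gene is included), from the GRCh38 genome, 5' to 3' on the strand of the gene, with each CpG in capitals. CRIP2 and NPW had some of the highest folds, C1orf159, CAPN1 and GCGR were strong and close to the gene end, H3-3B holds the letters AATAAA, and DEAF1 had the most fragments.
CRIP2, 3785 bp past its end, chr14:105483887-105484007, plus strand: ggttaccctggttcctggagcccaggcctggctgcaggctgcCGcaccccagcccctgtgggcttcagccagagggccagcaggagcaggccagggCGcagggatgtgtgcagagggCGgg
NPW, 937 bp past its end, chr16:2021632-2021752, plus strand: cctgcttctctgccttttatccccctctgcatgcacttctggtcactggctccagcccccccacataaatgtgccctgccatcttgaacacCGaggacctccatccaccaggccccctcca
C1orf159, 162 bp past its end, chr1:1081596-1081716, minus strand: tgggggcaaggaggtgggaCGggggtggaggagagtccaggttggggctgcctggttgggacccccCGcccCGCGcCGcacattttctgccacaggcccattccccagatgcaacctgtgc
CAPN1, 52 bp past its end, chr11:65212007-65212118, plus strand: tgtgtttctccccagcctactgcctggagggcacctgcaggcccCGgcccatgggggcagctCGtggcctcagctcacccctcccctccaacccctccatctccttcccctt
GCGR, 122 bp past its end, chr17:81814070-81814190, plus strand: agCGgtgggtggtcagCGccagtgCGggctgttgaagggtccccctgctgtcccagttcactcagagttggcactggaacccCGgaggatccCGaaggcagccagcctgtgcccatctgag
H3-3B, 3211 bp past its end, chr17:75773163-75773283, minus strand: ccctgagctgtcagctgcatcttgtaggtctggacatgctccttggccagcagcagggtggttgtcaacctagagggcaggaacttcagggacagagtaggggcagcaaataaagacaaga
DEAF1, 1458 bp past its end, chr11:642715-642835, minus strand: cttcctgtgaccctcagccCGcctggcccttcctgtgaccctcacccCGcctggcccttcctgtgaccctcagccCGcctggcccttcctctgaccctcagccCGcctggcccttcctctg

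These windows were rich in G and C. The GC content was 71.9% at CRIP2, 59.5% at NPW, 68.6% at C1orf159, 67.9% at CAPN1, 65.3% at GCGR, 54.5% at H3-3B and 70.2% at DEAF1. CpG was sparse in them, from 0 at H3-3B to 5 at C1orf159 and GCGR.

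The peak values are those of the authors' caller and serve only to describe and rank peaks within the list. The pileup is the number of fragments at the summit, and the fold is the pileup plus 1 over a local background plus 1. CRIP2, which encodes a LIM-domain protein, had 4 peaks past its end, with folds of 3.90, 6.85, 7.96 and 4.62. The second of them was 1221 bp wide, the widest of all 1173. The peaks with folds of 7.96 and 4.62 lay 3785 and 4278 bp past the end of CRIP2. A protein-coding TSS was nearer to each, at 2370 and 1877 bp. NPW, the gene of neuropeptide W, had a peak with a fold of 7.34 from 13 fragments, and the one beyond ENSG00000289281 had a fold of 7.26 from 12 fragments. Peaks beyond ARHGEF19 (a guanine nucleotide exchange factor), C1orf159, CAPN1 (the catalytic subunit of calpain-1), ZDHHC18 (a palmitoyltransferase) and GCGR (the glucagon receptor) had folds of 6.77, 6.72, 6.61, 6.49 and 6.47. Each of the 10 highest folds rested on 11 to 22 fragments.

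The peak with the most fragments lay in sequence that repeats itself. It was 1458 bp past the end of DEAF1, a transcription factor gene whose tail faces that of DRD4, a dopamine receptor gene. It had 43 fragments, a background of 7.68, a fold of 5.07 and the highest −log10 q of the set, 12.4. Its central 32 bases occur at 2 places in the genome, both within the repeated sequence around this summit. A search for tandem repeats, added after this sequence had been seen, asked for a shift of 10 to 100 bases at which 80% of the summit and the 200 bp on either side matched themselves. It found 0 of 1173 peaks, which allows a share of up to 0.256% by the limit of 3 counts and 0.314% by the exact interval, and so missed the DEAF1 peak, against 24 of 4508 other intergenic peaks (0.532%, 0.341% to 0.791%). A window of 60 bp on either side with shifts of 10 to 60 bases was then tried because of that miss, and it held 2 of 1173, DEAF1 (a shift of 28 bases) and THOP1 (57 bases), against 61 of 4508 other intergenic peaks. Since the second window was chosen for its result at DEAF1, its count carries no weight for the set.

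Peaks were denser past gene ends than in other intergenic sequence, and part of that gap went with GC content. The 49.5 Mb of sequence that met the rule was 4.38% of intergenic sequence away from protein-coding TSSs. It held 23.7 summits per Mb (22.3 to 25.1), and the rest held 4.17 per Mb (4.05 to 4.29), a ratio of 5.68 (5.33 to 6.06). When every base was given the peak rate that other intergenic sequence has at the same GC content (200 bp on either side of the base, bins of 2%), the ratio of observed to expected peaks was 2.04 (1.92 to 2.16). With the rates that the whole genome, genes and promoters included, has at each GC content, it was 1.19 (1.12 to 1.26). The mean GC content was 44.3% past gene ends and 39.8% in other intergenic sequence. How far mappability or copy number moved these densities was not tested.

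The gap was present in each GC class with more than 2 peaks past gene ends. At 55% to 60% GC the density was 103.0 per Mb (91.8 to 115) past gene ends and 48.0 per Mb in other intergenic sequence, a ratio of 2.14 (1.88 to 2.43). At 65% to 70% GC it was 328.0 against 164.3 per Mb, a ratio of 1.996 (1.66 to 2.40). In the 5 classes from 50% GC upward the ratio lay between 1.93 and 2.14. It was 2.72 (2.20 to 3.33) at 45% to 50% and 2.95 (1.60 to 5.08) at 40% to 45%. Under 40% GC lay 32.2% of the gene-end sequence and only 2 of its peaks.

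**Figure D1:**
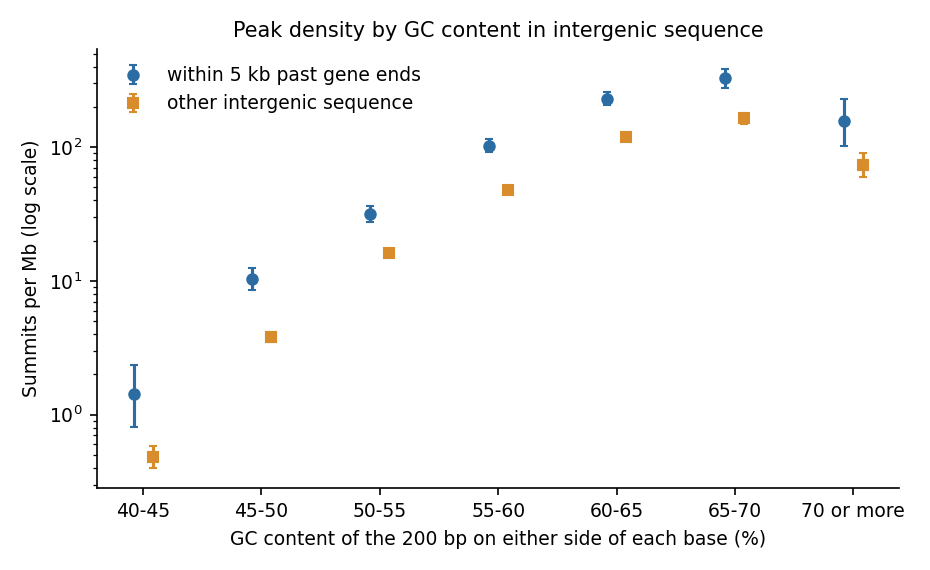
Summits per Mb (log scale) against the GC content of the 200 surrounding bases each way, for sequence within 5 kb past gene ends (circles) and other intergenic sequence (squares), with exact 95% Poisson intervals. The circles lie above the squares in all 7 classes shown, by a ratio of 1.93 to 2.95, and both fall in the class of 70% or more.

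The density was highest in the first 1.5 kb past the end. In steps of 500 bp it was 35.7, 30.8 and 30.8 per Mb up to 1.5 kb, and between 15.8 and 21.96 per Mb in the 7 steps from there to 5 kb. The first 1.5 kb, a division chosen after seeing this profile, held 555 summits at 32.5 per Mb and the rest 618 at 19.03 per Mb. The first 1 kb held 389 summits at 33.3 per Mb and the last, 4 to 5 kb, 149 at 17.3 per Mb, a ratio of 1.92 (1.59 to 2.34) that was 1.33 (1.09 to 1.61) after allowing for GC content. The limit of 5 kb was no boundary in density, since sequence at 5 to 7 kb held 16.1 per Mb and at 7 to 10 kb 15.2 per Mb. After allowing for GC content, the ratio of the first 5 kb to 7 to 10 kb was 1.11 (0.985 to 1.26). Observed over expected peaks at the rates of other intergenic sequence was 2.38 (2.19 to 2.59) in the first 1.5 kb. It was 1.81 (1.67 to 1.95) at 1.5 to 5 kb and 1.83 (1.64 to 2.04) at 7 to 10 kb. At 1 to 5 kb before gene starts it was 2.17 (2.02 to 2.33). Beyond 1.5 kb the excess was therefore shared with other sequence near genes. The interval for the first 1.5 kb also overlapped that for sequence before gene starts.

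Across the annotated end itself the density did not step by more than its counting error. The last 500 bp inside genes held 360 summits at 41.9 per Mb and the first 500 bp outside held 214 at 35.7 per Mb, a ratio of 0.851 (0.715 to 1.01), or 1.03 (0.869 to 1.23) after allowing for GC content. Inside the genes the density was highest 1.5 to 2 kb before the end, at 56.5 per Mb.

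**Figure D2:**
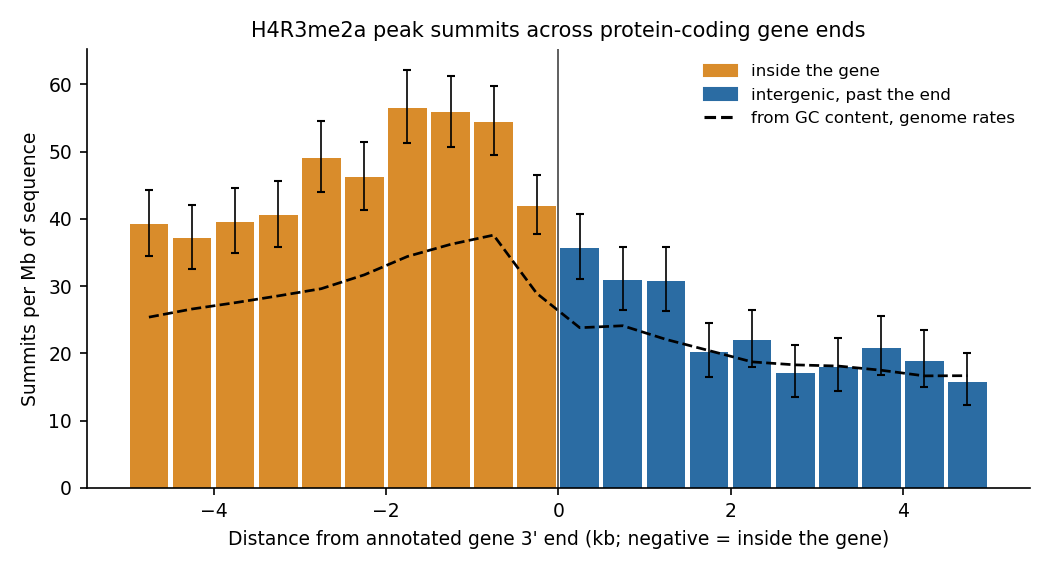
Summits per Mb in steps of 500 bp from 5 kb inside to 5 kb past annotated protein-coding gene ends, with exact 95% Poisson intervals; the dashed line is the density expected from GC content at genome-wide rates. Bars past the end start at 35.7 per Mb and lie above the line up to 1.5 kb, then fall to 15.8 to 21.96 per Mb, near the line.

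Sequence before gene starts gave a close comparison. Its direction without allowance for GC content changed with the distance kept from TSSs. At 1 to 5 kb past ends the density was 18.8 per Mb (643 summits), and at 1 to 5 kb before starts 20.1 per Mb (727 summits), a ratio of 0.931 (0.836 to 1.04). Allowing for GC content the ratio was 0.831 (0.746 to 0.925). With all sequence within 3 kb of a protein-coding TSS left out, the ratio was 1.16 (1.01 to 1.34), and 0.915 (0.793 to 1.06) allowing for GC content. That cut took the sequence before starts from 36.1 to 17.3 Mb, and the sequence past ends only from 34.3 to 33.5 Mb. The value of 1.16 therefore did not compare like distances from genes.

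Where the tails of 2 genes face each other, both ends can lie within 5 kb of one summit. In this division, made after the data had been seen, 149 peaks lay past ends of genes on both strands, at 50.9 per Mb, and 1024 past ends on 1 strand, at 21.97 per Mb. The ratio was 2.32 (1.94 to 2.75), and 1.33 (1.11 to 1.58) allowing for GC content. Examples were RCC2, a chromosome condensation regulator, facing PADI6 (fold 6.22), SFXN4 facing DENND10 (6.10), MIB2 facing CDK11B (5.90), the apoptosis gene BIK facing MCAT (5.77), and the desaturase genes FADS2 and FADS3 (5.52). The distance of such a peak is that to the nearer of its ends, which by construction shortens it. Divided at 1.5 kb from the nearer end, the ratio allowing for GC content was 1.24 (1.00 to 1.53) within it and 1.16 (0.791 to 1.65) beyond it.

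In height the peaks past gene ends were like other intergenic peaks by fold and had more fragments. The median fold was 4.18 (4.12 to 4.26), against 4.14 (4.12 to 4.19) in other intergenic peaks and 4.09 (4.03 to 4.15) in 1172 peaks of 3' UTRs. The median pileup was 10 fragments (quartiles 8 and 12), against 9 (7 and 10) in other intergenic peaks and 11 in 3' UTR peaks. A pileup of 10 or fewer was found in 55.3% (52.4% to 58.2%), against 76.2% of other intergenic peaks and 59.5% of all peaks. The background under the summit moved the same way, with medians of 1.54 fragments past gene ends and 1.10 in other intergenic peaks. The median width was 184 bp against 172 bp.

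**Figure D3:**
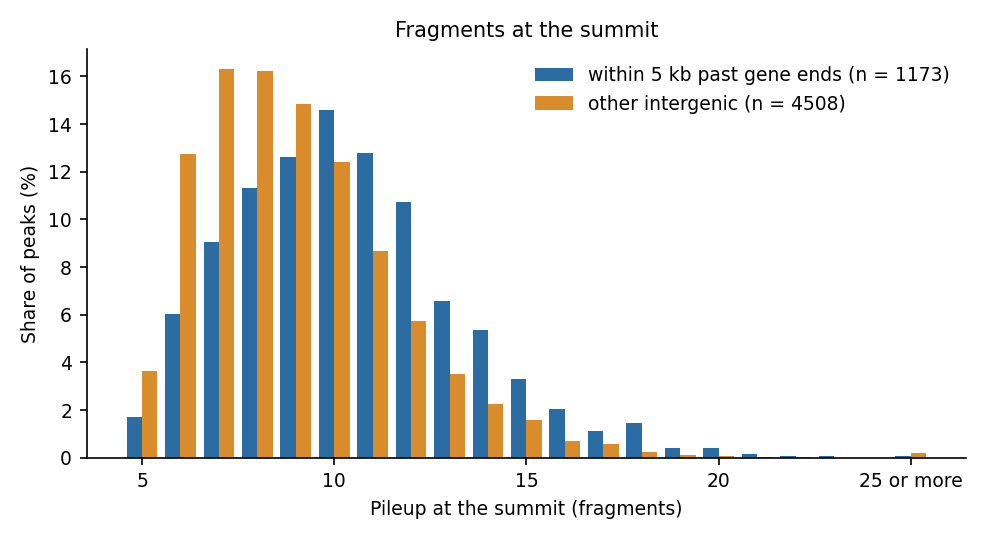
Share of peaks by pileup at the summit, in fragments, for 1173 peaks past gene ends and 4508 other intergenic peaks; the last pair of bars holds 25 or more. The medians are 10 and 9 fragments, and the bars for peaks past gene ends are the taller ones from 10 to 20 fragments.

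Strong peaks were about as common past gene ends as in the list as a whole. Folds of at least 6 were found in 30 peaks, 2.56% (1.73% to 3.63%), against 3.51% of all peaks and 2.51% of other intergenic peaks. A −log10 q of at least 5 was found in 44, 3.75% (2.74% to 5.003%), against 3.84% of all peaks and 2.20% (1.79% to 2.67%) of other intergenic peaks. Another summit lay within 1 kb of 28.9% (26.3% to 31.6%), against 14.4% of other intergenic and 31.1% of 3' UTR peaks. The central 32 bases occurred more than once in the genome for 64 peaks (5.46%), against 7.65% of other intergenic peaks, with 86348 places at the one beyond SPRTN. RefSeq placed 99 of the summits (8.44%) inside a gene, among them that past C1orf159, against 14.8% of other intergenic peaks. Inside a RefSeq protein-coding gene lay 40 (3.41%), against 3.66% of other intergenic peaks. The rule used the summit only, and the intervals of 30 peaks (2.56%) reached into a GENCODE gene, among them those past C1orf159 and CAPN1.

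By nearest 3' end, the 1173 peaks belonged to 925 gene ends, 6.74% of the 13716 protein-coding genes with sequence that met the rule. Of the peaks, 218 also lay 1 to 5 kb before a protein-coding gene start. The 245 peaks 1 to 3 kb from a protein-coding TSS lay at 48.5 per Mb, against 20.9 per Mb further away. A single peak lay past 742 ends, 2 past 133, 3 past 36, 4 past 13 and 5 past 1 end. The median distance past the end was 1643 bp (quartiles 723 and 3179 bp). The end with 5 was EXD3 on chromosome 9, with 13 to 15 fragments and folds of 4.49 to 5.96 in each. Its peaks 2420 and 3172 bp past the end lay nearer to a protein-coding TSS, at 2205 and 1453 bp. Ends with 4 included TRIM8 and RNF166, which encode ubiquitin ligases, ZC3H3, which encodes a zinc finger protein of mRNA export, and LY6E, RHPN1, ZNF469, CRIP2 and TMEM121. ZC3H3, RHPN1 and LY6E lie near each other on chromosome 8, RNF166 and ZNF469 on chromosome 16, and CRIP2 and TMEM121 on chromosome 14. The folds at ZC3H3 ran from 2.95 to 3.67 and at LY6E from 2.85 to 3.88, low values over backgrounds that reached 5.44 fragments at ZC3H3 and 4.61 at LY6E.

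**Figure D4:**
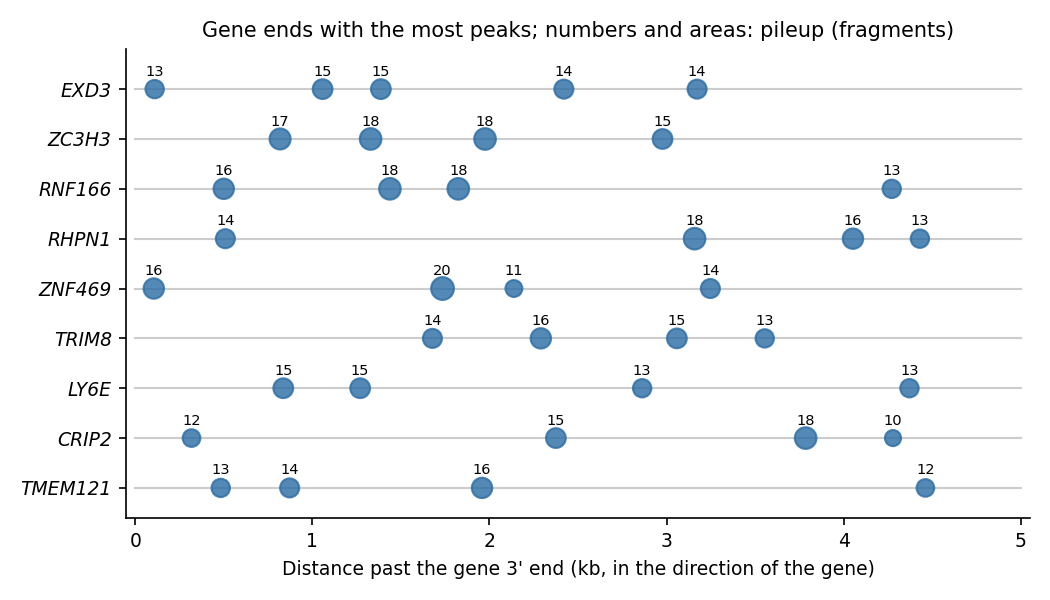
Peaks past 9 of the 10 gene ends with the most peaks, by distance from the 3' end in kb; point areas and the numbers above them give the pileup in fragments. EXD3 has 5 peaks of 13 to 15 fragments and the other 8 ends shown have 4 each, the tallest 20 fragments at ZNF469.

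Genes with a peak past the end more often held a peak inside. A summit lay inside 738 of the 925 genes (79.8%, 77.0% to 82.3%), against 42.1% (41.3% to 43.0%) of the 12791 genes credited with none past the end. Each peak was credited only to the gene of its nearest 3' end. The 12791 can therefore include genes with a peak past the end that lay nearer to another gene's end. With only peaks of −log10 q of at least 5, which leaves fewer peaks inside genes too, the first share was 26.2% (13.9% to 42.0%). Genes of the second kind weighted to the same flank GC content and gene length gave 64.5%. A 3' UTR peak was found in 16% (13.7% to 18.5%) against 4.84%, or 10.4% at the same GC content and length, and a peak in the last 5 kb of the gene in 50.2% (46.9% to 53.4%) against 15.9%, or 36.1%. A peak within 1 kb of the gene start was found in 37.6% (34.5% to 40.8%) against 17.4%, or 25.9%. Genes are not replicates, and neighbouring genes share their surroundings.

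The other 187 ends, a group formed after the data had been seen, had a peak past the end and none inside the gene. Of them, 11 had a peak within 1 kb of the start, where by construction only the side outside the gene could hold one. IGFN1 had a peak with a fold of 6.42 from 10 fragments, 445 bp past its end. TLK1, which encodes a chromatin-assembly kinase, had one with a fold of 5.89 from 9 fragments, 1030 bp past the end of a gene of 240492 bp. The central 32 bases of the TLK1 peak occur at 160 places in the genome. Its background, 0.697 fragments, was at the floor of the list, where 5.20% of peaks past gene ends and 8.08% of all peaks lay. ASB7 had one with a fold of 5.88 from 12 fragments. The genes with none inside were shorter, with a median length of 13079 bp against 23286.5 bp where the gene held a peak. A longer gene has more sequence in which a summit can lie, so a gap in this direction is built into the division.

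Gene lists were read against the 6.74% of all eligible genes, with each peak again credited only to the gene of its nearest 3' end. The interval included that value in every list but intestinal epithelium, ZNF genes and olfactory receptors. It treats genes as independent and makes no allowance for the number of lists, so it is no test of a list. The median GC content of the flanks was 47.42% for the intestinal list, against 44.64% for all genes credited with no peak past the end. Its part in the intestinal share was not tested. Of the genes of intestinal epithelium, 5 of 23 had a peak past the end (21.7%, 7.46% to 43.7%). They were MUC2, the main secreted mucin of the gut (fold 4.68, 12 fragments, 2471 bp past the end), the tight-junction gene CLDN3 (4.31), the trefoil factor TFF3 (4.24), the intestinal transcription factor CDX2 (4.06) and the adhesion gene EPCAM (3.95). The summit past CLDN3, a short gene, lay 235 bp from its end and 1508 bp from its own TSS. CLDN3 also had a peak within 1 kb of its start. Cytosolic ribosomal protein genes had 6 of 54 (11.1%, 4.19% to 22.6%), among them RPLP2 with a fold of 5.08. WNT signalling had 2 of 16, the transcription factors TCF7L1 (4.45) and LEF1 (4.09), and EGFR, RAS and MAPK signalling had 2 of 20, the kinase MAP2K2 (5.06) and the adaptor GRB2 (4.68). Chromatin regulators had 3 of 26, the deacetylase HDAC1 (5.38), the methyltransferase KMT2C (3.99) and the remodeller subunit SMARCB1 (3.61). The summit past HDAC1 lay 3685 bp from its end and 1087 bp from the TSS of another protein-coding gene. RefSeq placed the summits past HDAC1 and KMT2C inside a gene.

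Cytoskeleton and adhesion genes had 2 of 25, the actin crosslinker ACTN1 (6.27) and the cytolinker PLEC (5.34). Glycolysis and lipid synthesis had 2 of 19 (FASN and PGAM1), developmental transcription factors 2 of 31 (SIX3 and GATA5), DNA repair 1 of 18 (BRCA1), blood and immune cell genes 1 of 19 (LCK) and replication-dependent histones 1 of 43 (H2AC25). No peak was credited to the ends of 10 arginine methylation genes, 16 genes of mRNA 3' end processing and termination or 24 cell cycle genes. This allows shares of up to 30%, 18.8% and 12.5% by the limit of 3 counts of the total. By the exact interval it allows shares of up to 30.8%, 20.6% and 14.2%. ZNF genes had 7 of 315 (2.22%, 0.898% to 4.52%) and olfactory receptors 1 of 290 (0.345%, 0.00873% to 1.91%), both under 6.74%. The median GC content of the flanks was 44.26% for ZNF genes and 37.2% for olfactory receptors. It was 53.72% for all genes credited with a peak past the end and 44.64% for all credited with none. Its part in these shares was not tested.

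Chromosomes differed widely. Chromosome 17 held 143 of the peaks, 19 held 136, 1 held 129 and 16 held 97, against 7 on X and 3 on 18. Per Mb of sequence that met the rule, chromosome 22 held 62.2, 16 held 61.5, 17 held 58.3 and X held 2.64. Relative to the count expected from GC content, the ratio was highest on chromosome 17 (3.51, 2.96 to 4.14) and was 0.387 (0.156 to 0.797) on X. Other intergenic peaks shared much of this, with ratios of 2.33 on chromosome 17 and 0.116 on X. Against other intergenic sequence of the same chromosome at equal GC content, the order was different, and the ratio was 3.33 (1.21 to 8.02) on X, 3.01 (1.48 to 5.63) on 13, 2.99 (2.22 to 3.97) on chromosome 8, 1.504 (1.24 to 1.82) on 17 and 1.43 (1.15 to 1.77) on 19. Its interval included 1 on chromosomes 12, 15, 18 and 21.

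**Figure D5:**
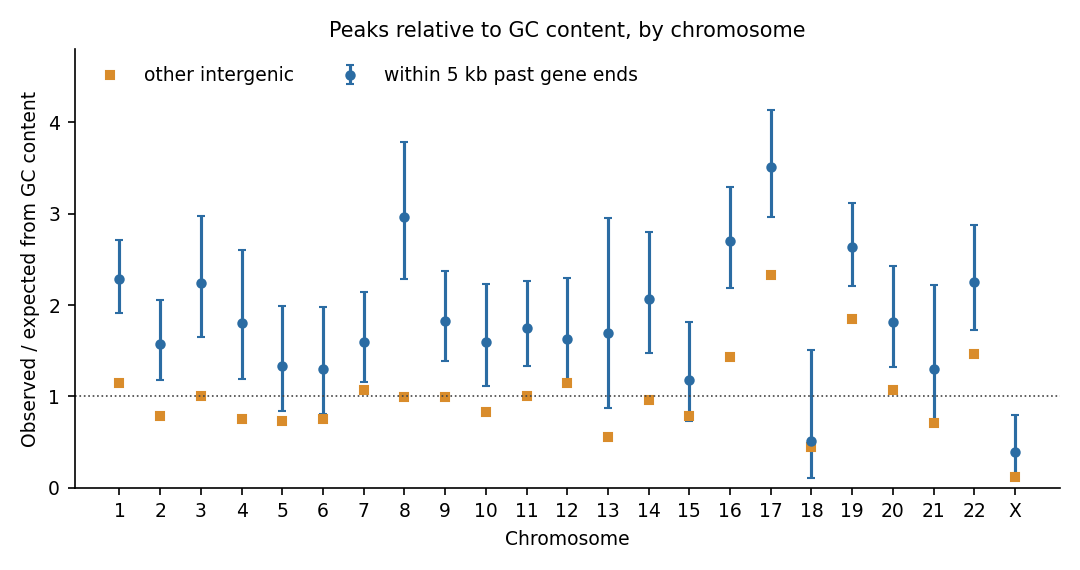
Observed peaks over the number expected from GC content at the rates of other intergenic sequence, by chromosome, for sequence past gene ends (circles, with exact 95% Poisson intervals) and other intergenic sequence (squares). Both are highest on chromosome 17 (3.51 and 2.33) and lowest on X (0.387 and 0.116).

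In sequence, the 200 bp on either side of these summits resembled those of other intergenic peaks more than promoters. The median GC content was 58.9% against 56.9%, and the median ratio of observed to expected CpG was 0.247 (0.240 to 0.260) against 0.252, with 0.420 at promoter peaks. The letters AATAAA, on either strand, were found at 15.004% (13.0% to 17.2%) of peaks past gene ends, 14.4% of other intergenic peaks (12.2% when weighted to the same GC content), 16.1% of 3' UTR peaks and 11.6% of all. GGGGG was found on either strand at 75.8% (73.2% to 78.2%), against 66.1% of other intergenic peaks (70.3% at the same GC content), 81.6% of 3' UTR peaks and 74.0% of all. GGGCGG was found at 25.7%, against 22.9% of other intergenic peaks (25.9%), 27.1% of 3' UTR peaks and 30.6% of all. The G-quadruplex pattern, closely spaced runs of G on either strand, was found at 26.002% (23.5% to 28.6%), against 19.8% of other intergenic peaks (22.7%), 29.2% of 3' UTR peaks and 27.1% of all. A match describes letters in the window and not a site in use.

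At the edges of the rule, the peaks just inside 5 kb included those 4996 bp past HP1BP3 (fold 3.55) and 4986 bp past PKMYT1 (5.49), and those just outside lay 5005 bp past EWSR1 (3.44), 5011 bp past HMG20B (3.44) and 5015 bp past NXPH3 (3.40). The nearest to a protein-coding TSS that were kept lay 1002 bp from one past SUGP2 (5.22), 1005 bp past FUT3 (5.30) and 1018 bp past APOA5 (3.94). Those left out lay 991 bp from a TSS past PIGQ (5.30), 974 bp past NDUFS8 (3.61) and 970 bp past VAMP8 (3.55).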

How the data were processed

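Peaks came from 1 H4R3me2a library against 1 input library of HCT116 cells. The submitters' processing notes name Bowtie2, MACS2, deepTools and the build GRCh38, with no version, setting or read number, which were not given in the sources used here. Per the file headers, the deposited table lists a pileup (signal, in fragments, not normalized), a fold (a ratio to the local background), the −log10 of a p-value and of a q-value, and a width in bp for every peak. The authors also deposited an interval list with a score and the same 33353 peaks and folds, whose starts lie 2 bp lower, and the table's positions were used.

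The background was recovered as (pileup + 1) / fold − 1, which gave back the deposited −log10 p within 0.05 in 33349 of 33349 peaks. Genes were those of GENCODE release 44 on GRCh38. Every base was classed by position and GC content, and expected counts were summed over all bases with Python 3.11.15, NumPy 2.4.6, pandas 2.3.3 and SciPy 1.17.1. The ratio calculation was tested on simulated summits, drawn independently at rates set by GC content and a known ratio. They had no clusters or regional differences, so they test the arithmetic and not how the ratio behaves in the real list. The genome sequence used here was in upper case, so the planned share of soft-masked bases was not computed.

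Each peak was given to the protein-coding gene with the nearest 3' end. The genes named were those of the peaks with the highest fold, −log10 q, width and pileup, of the ends with the most peaks, of the peaks beside each limit, and of up to 3 list genes with the highest fold; further genes of the lists, of facing tails and of ends without a peak inside the gene were named after their values had been seen. The peaks and gene lists were chosen with earlier results of these data known. The alternatives were stricter peak thresholds, merged peaks, other distances, other GC settings and subsets without some peaks, genes or chromosomes. A few genes that this rule names are not reported here.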

Additional observations from a re-analysis of the deposited data

How the results depend on the processing

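Of 78 alternative values over 17 settings, 45 lay inside the interval of the reported value and 33 outside it. Some moves follow from the setting itself, such as the median fold after a fold threshold or the share after another reach. The tally is therefore no measure of robustness. With only peaks of −log10 q of 5 or more (44 past gene ends), the share of intergenic peaks was 30.8%, the density ratio 9.71, the ratio at equal GC content 2.91, the near to far ratio 5.89 (1.38 to 52.8), the gene-end to gene-start ratio 0.602 (0.304 to 1.15), the median fold 5.94 and the share of genes with a peak inside 26.2%. With a fold of 4 or more, the gene-end to gene-start ratio was 0.835, the median fold 4.69 and the share of genes 71.6%. With the upper 50% of the list by −log10 q, the share was 23.4%, the density ratio 6.66, the ratio at equal GC content 2.27, the median fold 4.73 and the share of genes 69.98%. These thresholds also remove peaks inside genes. With peaks less than 1 kb apart merged, the share was 18.7%, the density ratio 5.03, the ratio at equal GC content 1.84 and the median fold 4.26.

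A reach of 2 kb gave a share of 11.6% and a density ratio of 6.56, and one of 10 kb a share of 30.9% and a share of genes of 76.9%. Keeping 3 kb from TSSs gave a share of 18.4% and a gene-end to gene-start ratio of 1.16, after removing mainly sequence before starts. With GC-based counts, at 1 kb from TSSs, the gene-end to gene-start ratio was 0.831. The ratio at equal GC content was 1.90 with GC content over 500 bp on either side and 1.19 with rates from the whole genome. Alternatives chosen after seeing the data gave 1.797 for that ratio with rates of the same chromosome. Without summits in RefSeq genes they gave a share of 21.8%, a density ratio of 6.11 and a ratio at equal GC content of 2.20, and without chromosomes 17 and 19 a share of 18.9%. Each threshold leaves fewer peaks, and the cause of these shifts was not tested.

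No paired analysis was possible because each group had 1 library, and for the same reason none was left out. The median peak rests on 10 fragments, which limits the precision of each fold.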
